A study of Mus musculus with 10 samples.

Results

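The antioxidant and NRF2 target genes described here are 10 named genes of redox defense, found by matching gene symbols to the Ensembl identifiers of the counted genes. All 10 were among the 39179 genes listed for each sample, and all 10 passed the filter on low counts that left 12690 genes for testing. They are Nfe2l2, which encodes the transcription factor NRF2, and 9 genes of enzymes that it controls or that act beside its targets, namely Gclc, Gclm, Gpx3, Cat, Sod2, Txnrd1, Srxn1, Nqo1 and Hmox1. Values are given as CPM, read counts scaled to a fixed library total with TMM factors that correct for differences in library composition.

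The samples were tibialis anterior muscles, fast-twitch muscles of the lower leg, from 10 mice with 1 library per animal. The LLC group (n = 6) carried subcutaneous tumors in both flanks from injected Lewis Lung Carcinoma cells, a mouse lung cancer line whose growth brings on cachexia, a loss of weight and muscle. The Control group (n = 4) received buffer in place of cells and had no tumor. Sample labels give the strain as C57BL/6J, an age of 10 weeks and 23 days of tumor development, whereas the series design gives male C57BL/10 mice, 8 weeks and 22 days, and this difference could not be resolved. No engineered allele is named for either group. All libraries were run in the same lane, and the sequenced LLC mice were animals that lived to the end of the experiment.

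NRF2 is normally held in the cytoplasm by KEAP1, which directs it to ubiquitin ligase and proteasome. When oxidants or electrophiles modify KEAP1, NRF2 builds up, enters the nucleus and, with a small MAF partner, binds antioxidant response elements, short sequences near genes of glutathione synthesis, thioredoxin reduction, quinone reduction and heme breakdown. BACH1 competes for the same elements. In skeletal muscle, where contraction and mitochondria generate superoxide and hydrogen peroxide, superoxide dismutases convert superoxide to peroxide, and catalase, glutathione peroxidases and peroxiredoxins remove the peroxide.

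Total counts per sample ran from 16693209 to 21303084, so that 3 counts, the smallest level taken as detected, equal 0.141 to 0.180 CPM, and every member was well above that floor in every sample. Fast muscle fibre markers, 8 genes, summed to 117469 to 124529 CPM in Control and to 78665 to 128582 CPM in LLC, with the lowest sum in LLC 1, and none was at 0. Summed neutrophil markers, 9 genes of which 8 could be tested and all 8 rose, were at 0.741 to 2.57 CPM in Control and at 34.1 to 73.0 CPM in LLC, although none was at 0 throughout Control. Summed fibroblast markers, 5 genes that all fell, went from 237 to 304 CPM in Control to 46.8 to 80.1 CPM in LLC. The 5 erythroid markers that could be tested, of which 3 rose, summed to 58.8 to 83.4 CPM in Control and to 88.7 to 144 CPM in LLC. Macrophage markers, of which Lyz2 was the highest, were at 24.9 to 38.0 CPM against 21.5 to 38.8 CPM, with 1 of 7 tested past the threshold, as lower. Endothelial markers were at 224 to 300 CPM against 225 to 268 CPM, with 1 of 5 lower. Adipocyte markers were at 153 to 190 CPM against 142 to 206 CPM, with none of 3 tested past the threshold. Fabp4 was the largest part of this sum, at a mean of 152 CPM in Control and 156 CPM in LLC. Means of the other adipocyte markers were lower in LLC. They were 0.56 of the Control mean for Adipoq, 0.57 for Cfd, 0.60 for Plin1 and 0.35 for Lep. For each of these the groups overlapped, and Plin1 and Lep were too low to test. T cell markers, too low to test, summed to 0.0494 to 0.265 CPM against 0.0496 to 0.154 CPM. The part of these cell types in the values below was not tested.

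To ask which members differ between LLC and Control, each gene was tested within a fit of all 12690 genes, where passing required a 1.5-fold change and an adjusted p no higher than 0.05. Gpx3, a secreted glutathione peroxidase, rose 3.01-fold and was the 1 member that passed, while 1.65% of all tested genes passed as higher and 3.99% as lower. Of the other members, 8 had positive log2 fold changes of 0.32 to 1.81 and Sod2 had one of -0.40, and none of these 9 passed. The median log2 fold change of the members was 0.64, against 0.00 over all tested genes. In 4 members, Gpx3, Gclc, Gclm and Hmox1, every LLC sample was above every Control sample, a pattern that 6.4% of all tested genes showed, and no member had every LLC sample below every Control sample, as 9.57% of tested genes did. With the p left unadjusted, 5 members passed as higher and none as lower, against 4.93% and 7.45% of all tested genes. Under the DESeq2 Wald test, 4 members passed, Gpx3, Gclm, Srxn1 and Hmox1, all higher, where 3.06% of tested genes passed as higher and 5.23% as lower. In bulk muscle, fewer cells of a type and less RNA per cell cannot be told apart, and this holds for each value below.

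Gpx3 (ENSMUSG00000018339, chromosome 11, 54902453 to 54910377 of build GRCm38) encodes the extracellular selenium-dependent peroxidase found in plasma. In Control its values were 109, 94.2, 103 and 75.2 CPM, and in LLC they were 286, 197, 242, 195, 428 and 376 CPM for LLC 1 to LLC 6. Every LLC muscle thus lay above every Control muscle, with the highest value in LLC 5 and the lowest in LLC 4. Group levels were 95.4 ± 14.8 CPM (SD, n = 4) and 287 ± 96.4 CPM (SD, n = 6), for a log2 fold change of 1.59 ± 0.24 (SE) whose adjusted p was 0.00218 by the quasi-likelihood test of edgeR, used for all adjusted p-values below unless another test is named. It passed in each of the 10 fits that left out a sample, in which its log2 fold change ran from 1.44 to 1.69.

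Cat (ENSMUSG00000027187, chromosome 2, 103453849 to 103485160) encodes catalase, the peroxisomal enzyme that splits hydrogen peroxide. Its Control values were 101, 100.04, 91.2 and 85.7 CPM, while in LLC the lowest was 95.6 CPM (LLC 2), the median 126 CPM and the highest 158 CPM (LLC 1). The groups overlapped in LLC 2 alone, the other 5 LLC muscles lying above all Control muscles. The log2 fold change of Cat was 0.42 ± 0.15 (SE), short of the threshold (adjusted p = 0.112).

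Sod2 (ENSMUSG00000006818, chromosome 17, 13006846 to 13040063) encodes the manganese superoxide dismutase of the mitochondrial matrix and was the one member with a negative fold change. Control muscles had 265, 303, 293 and 287 CPM, and LLC muscles had 126, 264, 254, 274, 171 and 219 CPM from LLC 1 to LLC 6. Only LLC 4 reached into the Control range, and LLC 1 was lowest. The log2 fold change was -0.40 ± 0.19 (SE) with an adjusted p of 0.197, so the difference did not pass, and without LLC 1 the log2 fold change was -0.28. Beside it, mitochondrially encoded genes took 28.4 to 30.7% of counts in Control and 22.0 to 27.9% in LLC, and LLC 1 and LLC 5, with the lowest Sod2, had the lowest shares at 22.0% and 22.9% (95% Wilson half-widths at most 0.0208 percentage points, counting error only). The part of this in the Sod2 values was not tested.

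**Figure D1:**
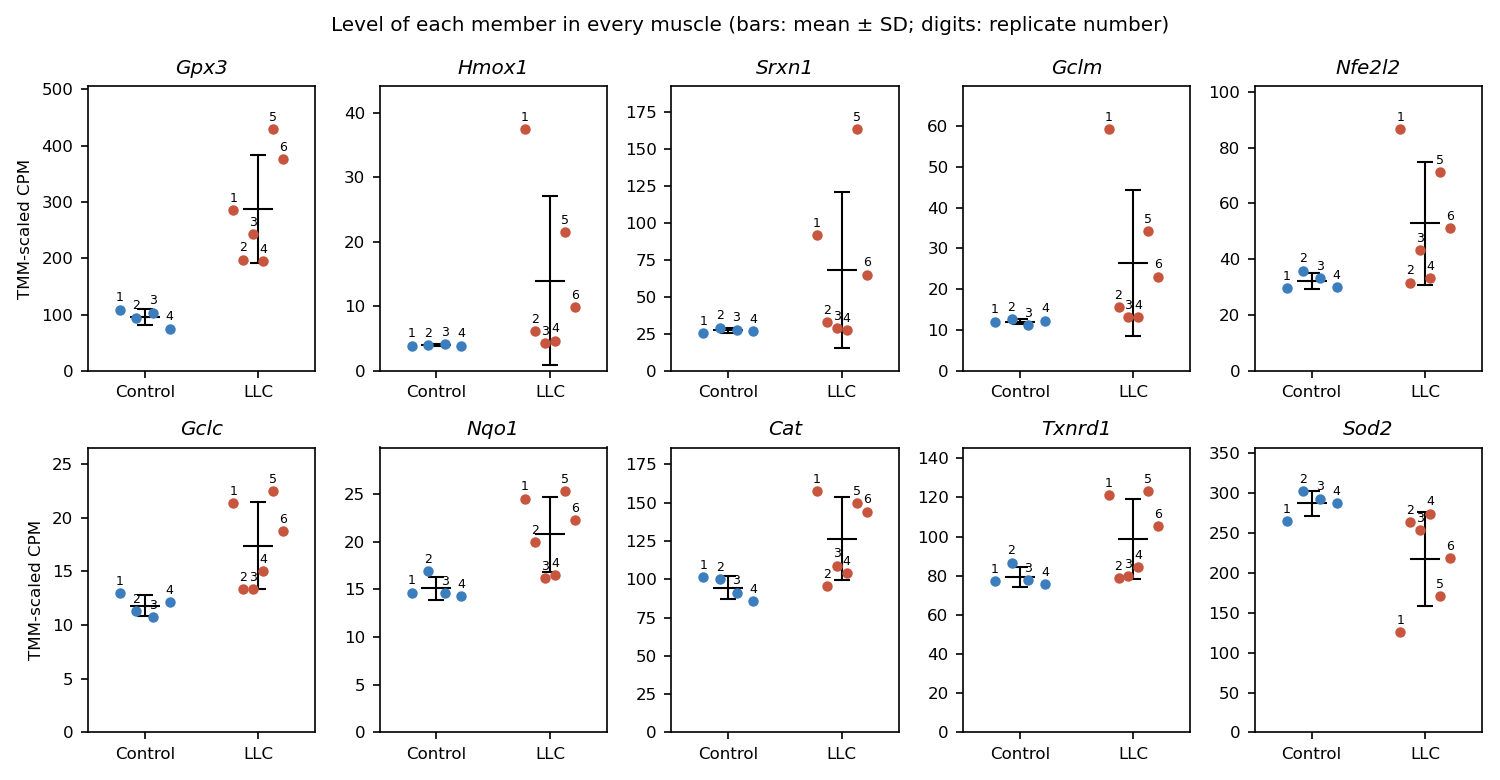
Each panel plots the TMM-scaled CPM of 1 member in the 4 Control (blue) and 6 LLC (red) muscles, on axes that start at 0, with digits for replicate numbers and bars for the mean ± SD. Gpx3 shows no overlap between groups, and for Hmox1, Srxn1 and Gclm the LLC points spread from near the Control level up to 37.4, 163 and 59.1 CPM.

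Nfe2l2 (ENSMUSG00000015839, chromosome 2, 75675513 to 75704641), the gene of NRF2 itself, had 29.7, 35.9, 33.3 and 30.0 CPM in Control. In LLC it had 86.5, 31.6, 43.3, 33.1, 71.2 and 51.1 CPM. LLC 2 and LLC 4 lay within the Control range and the other 4 lay above it. The log2 fold change, 0.71 ± 0.27 (SE), was short of the threshold (adjusted p = 0.121). NRF2 is controlled mainly through the stability of its protein, which was not measured, so these values are of the transcript alone.

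Gclc and Gclm encode the catalytic and modifier subunits of glutamate-cysteine ligase, the rate-limiting enzyme of glutathione synthesis. Gclc (ENSMUSG00000032350, chromosome 9, 77754535 to 77794485) had 13.0, 11.3, 10.8 and 12.2 CPM in Control and, in LLC, a lowest value of 13.3 CPM (LLC 3), a median of 16.9 CPM and a highest of 22.5 CPM (LLC 5). Every LLC value was above every Control value, by a narrow margin in LLC 2 and LLC 3. Its log2 fold change was 0.56 ± 0.17 (SE), just under 1.5-fold, with an adjusted p of 0.0669. Gclc did pass without LLC 2, at 0.64 (adjusted p = 0.0416), or without LLC 3, at 0.63 (adjusted p = 0.0450). Gclm (ENSMUSG00000028124, chromosome 3, 122245557 to 122270732) had 12.02, 12.7, 11.1 and 12.3 CPM in Control and, in LLC, a lowest value of 13.1 CPM (LLC 3), a median of 19.3 CPM and a highest of 59.1 CPM (LLC 1). The groups did not overlap, but LLC 3 and LLC 4 exceeded the highest Control by under 1 CPM. Its log2 fold change was 1.13 ± 0.41 (SE) with an adjusted p of 0.110, and it was 0.73 without LLC 1. Exons of Gclm overlap those of 1 gene on the same strand and 1 antisense gene, so reads of these cannot be told apart from its own with certainty.

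Txnrd1 and Srxn1 belong to the thioredoxin and peroxiredoxin cycle. Txnrd1 (ENSMUSG00000020250, chromosome 10, 82833951 to 82897712), the cytosolic thioredoxin reductase, had 77.1, 86.7, 77.9 and 75.5 CPM in Control, while in LLC the lowest was 78.7 CPM (LLC 2), the median 94.9 CPM and the highest 123 CPM (LLC 5). LLC 1, LLC 5 and LLC 6 exceeded every Control sample and the other 3 lay within the Control range. It had the smallest log2 fold change of the members by size, 0.32 ± 0.15 (SE), with an adjusted p of 0.185. Srxn1 (ENSMUSG00000032802, chromosome 2, 152105516 to 152111376), which encodes sulfiredoxin, the enzyme that restores overoxidized peroxiredoxins, had 25.6, 29.2, 27.9 and 27.1 CPM in Control and 91.7, 32.9, 29.0, 27.5, 163 and 65.1 CPM in LLC 1 to LLC 6. LLC 3 and LLC 4 were at the Control level and LLC 5 was the highest, so that the LLC values spanned 5.93-fold against 1.14-fold in Control. The log2 fold change was 1.31 ± 0.48 (SE) with an adjusted p of 0.113 in edgeR, against an adjusted p of 0.0314 in DESeq2, and without LLC 5 it was 0.84, with an adjusted p of 0.184 in edgeR.

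Nqo1 and Hmox1 are classical NRF2 target genes. Nqo1 (ENSMUSG00000003849, chromosome 8, 107388225 to 107403206), the quinone reductase, had 14.7, 16.9, 14.6 and 14.3 CPM in Control and, in LLC, a lowest value of 16.2 CPM (LLC 3), a median of 21.1 CPM and a highest of 25.3 CPM (LLC 5). LLC 3 and LLC 4 lay under the highest Control value, and the other 4 lay above it. Its log2 fold change was 0.46 ± 0.14 (SE), with an adjusted p of 0.0759. Hmox1 (ENSMUSG00000005413, chromosome 8, 75093621 to 75100589), the inducible heme oxygenase, had 3.92, 4.00, 4.16 and 3.89 CPM in Control and 37.4, 6.16, 4.29, 4.69, 21.5 and 9.89 CPM in LLC 1 to LLC 6. All LLC values were above all Control values, yet LLC 3 differed from the highest Control by a fraction of 1 CPM while LLC 1 stood far above. Its log2 fold change of 1.81 ± 0.61 (SE) was the largest of the members and did not pass (adjusted p = 0.0935), and without LLC 1 it was 1.24. In DESeq2 Hmox1 had an adjusted p of 0.0417 and Gclm one of 0.0357. Gclc and Nqo1 had DESeq2 adjusted p of 0.0236 and 0.0342, but at log2 fold changes of 0.57 and 0.47 they stayed under 1.5-fold. Macrophages also express Hmox1. Their summed markers were at 28.2, 33.5, 21.5, 29.4, 38.8 and 23.9 CPM in LLC 1 to LLC 6, against 24.9 to 38.0 CPM in Control. Lyz2 was the largest part of this sum, at a mean of 13.3 CPM in Control and 17.1 CPM in LLC. Of the 7 tested macrophage markers, 5 had negative log2 fold changes and 2, Lyz2 and Cd68, had positive ones. Cd68 was at 2.47, 0.621, 0.695, 0.605, 1.24 and 0.615 CPM in LLC 1 to LLC 6, against 0.657 to 0.811 CPM in Control. Summed neutrophil markers were at 40.1, 47.8, 34.1, 72.5, 73.0 and 35.1 CPM in the same order. The part of these cells in the Hmox1 values was not tested.

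The antioxidant response element was searched for as the core TGACNNNGC, where N is any base, and in no other form. It was looked for on both strands in windows of RefSeq promoters (build GRCm38.p6) from 250 bases before to 50 bases after the start of transcription, which were found for 8 members, all but Gclc and Hmox1. The core was present in the windows of 4 of these 8, against 12.4% of all 32851 windows, and Txnrd1 had 3 windows of which 1 held it. The 4 matches are shown because these elements are where NRF2 binds, with the core, or its reverse complement, in capitals and the gene's strand read 5′ to 3′.
Nfe2l2, chr2:75704885-75704913, gene on the minus strand: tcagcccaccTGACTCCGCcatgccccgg
Gclm, chr3:122245413-122245441, gene on the plus strand: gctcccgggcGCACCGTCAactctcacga
Txnrd1, chr10:82859104-82859132, gene on the plus strand: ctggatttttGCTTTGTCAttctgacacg
Srxn1, chr2:152105542-152105570, gene on the plus strand: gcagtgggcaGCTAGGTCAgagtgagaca
The related 7-base AP-1 motif TGACTCA, which can overlap the element, occurred in 5.2% of all windows and, among members, in Srxn1 alone, with 2 copies upstream of the start. They are shown with the motif, here read as its reverse complement, in capitals. In the second copy the bases GC follow, which gives TGAGTCAGC, a form that the search for TGACNNNGC does not count.
Srxn1, chr2:152105412-152105438: tcggagggccTGAGTCAccacgctgtg
Srxn1, chr2:152105469-152105495: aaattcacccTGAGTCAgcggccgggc
The 4 genes with the core TGACNNNGC in this window had log2 fold changes of 0.71, 1.13, 0.32 and 1.31. The 4 whose windows held neither of the 2 searched motifs, Gpx3, Cat, Sod2 and Nqo1, had 1.59, 0.42, -0.40 and 0.46. A match describes letters in the window, and no binding was measured.

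The members varied widely between the LLC mice, and mostly in the same mice. For 9 members the 3 highest LLC values were those of LLC 1, LLC 5 and LLC 6, and for Sod2 they were the 3 lowest, whereas 15.5% of all tested genes had their 3 highest LLC values in these mice and 15.6% had them in LLC 2, LLC 3 and LLC 4. This grouping was noticed in the values, is a description of shared libraries and was not tested. The median difference of the 10 members from the Control mean on the log2 scale was 1.14 in LLC 1, 1.04 in LLC 5 and 0.67 in LLC 6, but 0.22, 0.11 and 0.13 in LLC 2, LLC 3 and LLC 4. Gpx3 was the exception to the low values in those mice, with differences of 1.06, 1.36 and 1.04. For all 10 members the SD of log2 CPM in LLC exceeded that in Control, as it was for 85.1% of all tested genes. In LLC it ran from 0.28 for Nqo1 to 1.25 for Hmox1, and in Control from 0.04 for Hmox1 to 0.24 for Gpx3.

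**Figure D2:**
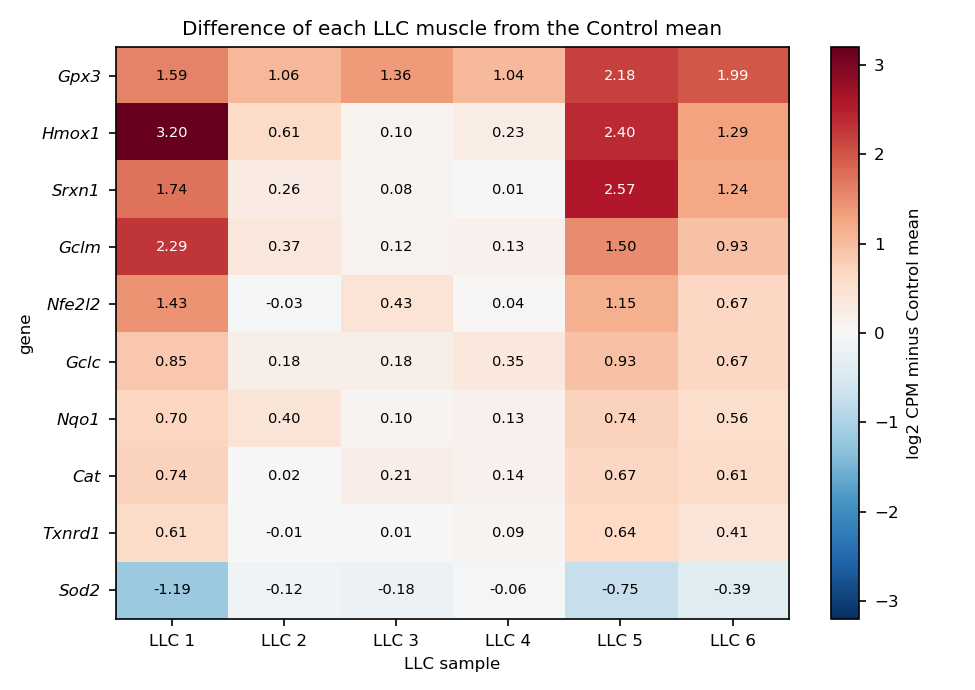
The map gives log2 CPM minus the Control mean for each member (rows) in each LLC muscle (columns), red for higher and blue for lower. LLC 1, LLC 5 and LLC 6 are darker than the other columns in nearly every row, Gpx3 is at 1.04 or more in all 6 muscles, and Sod2 runs from -0.06 in LLC 4 to -1.19 in LLC 1.

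Levels of different genes were compared as CPM per kilobase of exon. In Control the order was Gpx3 (52.6 ± 8.17, SD, n = 4), Cat (36.2 ± 2.85), Sod2 (28.7 ± 1.60), Txnrd1 (11.2 ± 0.711), Nqo1 (9.73 ± 0.769), Srxn1 (9.73 ± 0.543), Nfe2l2 (8.49 ± 0.772), Gclc (3.13 ± 0.258), Hmox1 (2.28 ± 0.0703) and Gclm (1.91 ± 0.107). From Txnrd1 to Nfe2l2, ranges of mean ± SD overlapped between neighbors, and between the other neighbors they did not. In LLC the leading places were Gpx3 (158 ± 53.2, SD, n = 6), Cat (48.5 ± 10.3) and Srxn1 (24.2 ± 18.8), followed by Sod2 (21.8 ± 5.86), and mean ± SD ranges overlapped between Cat and Srxn1 and between Srxn1 and Sod2. Lengths are of all annotated exons over all isoforms of a gene. They are 10008 bases for Sod2, 7086 for Txnrd1, 6291 for Gclm and 3970 for Sod1, another superoxide dismutase gene. Levels per kilobase are therefore low estimates, to a degree that may differ between genes, and the order above and the shares below depend on these lengths.

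Measured per kilobase, the share of Gpx3 among 5 glutathione peroxidase genes was 23.9% ± 2.62 (SD, n = 4, Control) against 45.3% ± 6.21 (SD, n = 6, LLC), without overlap between 20.8 to 26.5% and 38.0 to 53.8%. Gpx4, the peroxidase of membrane lipids, went from 64.5% ± 2.51 to 47.3% ± 4.94. Hmox1 made up 18.7% ± 0.873 of both heme oxygenase genes in Control and from 21.1% to 71.7% of them in LLC. Among superoxide dismutases Sod2 took 50.9% ± 1.77 in Control and from 16.1% to 49.3% in LLC. Txnrd1 held 65.5% ± 2.42 and 69.4% ± 2.33 of the thioredoxin reductase genes.

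Ratios within a library do not depend on library scaling, and 7 were tested, each joining a member with its partner subunit, isozyme, substrate or inhibitor. The log2 ratio of Gpx3 to Gpx1, the cytosolic glutathione peroxidase, was higher in LLC by 1.55, from 1.71 ± 0.19 (SD, n = 4) to 3.26 ± 0.49 (SD, n = 6), with 6 of 6 LLC samples above every Control (p = 0.00952 by a two-sided exact permutation test, the lowest that 4 against 6 samples can give, and 0.0333 after Benjamini-Hochberg adjustment over 7 ratios). Gpx1 itself was at 28.9 ± 1.37 CPM in Control and 28.9 ± 4.76 CPM in LLC. Hmox1 to Hmox2, the constitutive heme oxygenase, was higher by 1.49, also with 6 of 6 LLC samples above every Control and a SD of 1.31 among them (two-sided exact permutation p = 0.00952, adjusted p = 0.0333). Sod2 to Sod1, the cytosolic copper-zinc enzyme, changed by -0.95, with 5 of 6 LLC samples below every Control (two-sided exact permutation p = 0.0190, adjusted p = 0.0444). Sod1 alone was at a log2 fold change of 0.57 ± 0.23 (SE), short of the threshold. With 1 sample left out, these 3 ratios kept an adjusted p no higher than 0.05 without LLC 4 alone, in tests where the smallest p is 0.0238 without a Control and 0.0159 without a LLC sample, and without LLC 1 the differences were 1.46 for Gpx3, 1.10 for Hmox1 and -0.64 for Sod2.

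The other 4 ratios did not pass. Gclc to Gclm differed by -0.37 (two-sided exact permutation p = 0.248, adjusted p = 0.248), its SD in LLC being 0.59, and 4 LLC samples lay below and 1 above every Control. For Txnrd1 to the mitochondrial Txnrd2 the difference was 0.12, for Srxn1 to its substrate Prdx1 it was 0.64, and for Nfe2l2 to its inhibitor Keap1 it was 0.24 (two-sided exact permutation p = 0.181 for each, adjusted p = 0.211). Their SDs in LLC were 0.11, 0.80 and 0.32. Among the partners, the log2 fold changes of Hmox2, Txnrd2, Prdx1 and Keap1 were -0.17, 0.19, 0.37 and 0.41, and none passed.

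**Figure D3:**
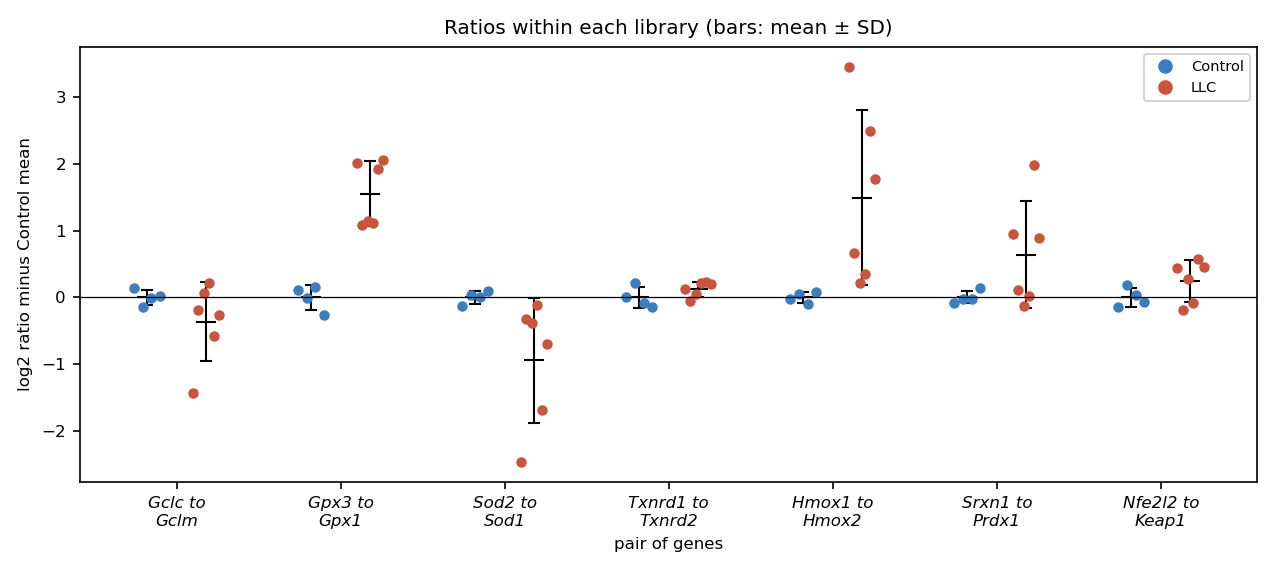
The points are log2 ratios of 2 genes in the same library, shown relative to the Control mean, for Control (blue) and LLC (red), with bars for the mean ± SD. Gpx3 to Gpx1 and Hmox1 to Hmox2 lie above Control in all 6 LLC muscles, Sod2 to Sod1 lies below in 5, and the other 4 pairs overlap Control.

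A wider list of 70 other genes of these pathways was read from the same fit, and 69 could be tested, Slc7a11 being too low. Of these, 1 rose (Slc3a2) and 5 fell (Glrx, Gpx8, Sod3, Ephx1 and Ugdh), against 1.65% higher and 3.99% lower over all tested genes, and the median log2 fold change was 0.16. Slc3a2, the heavy chain of several amino acid transporters including that for cystine, had 20.5 ± 1.37 CPM in Control (SD, n = 4) and 31.9 ± 6.43 CPM in LLC (SD, n = 6), and its log2 fold change was 0.63 ± 0.14 (SE), with an adjusted p of 0.0221. This call held in 4 of the 10 fits that left out a sample and was lost without each Control, LLC 1 or LLC 5, where the log2 fold change was still 0.56 or more and the adjusted p at most 0.0763. In DESeq2, 7 of the listed genes passed as higher and 5 as lower, against 3.06% and 5.23% of all tested genes, and all 6 genes called by edgeR were among them.

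The genes that fell were of several kinds. Sod3, the extracellular superoxide dismutase, had 2.82 ± 0.575 CPM in Control (SD, n = 4) and 1.14 ± 0.472 CPM in LLC (SD, n = 6), and fell by 1.29 ± 0.27 (SE) on the log2 scale (adjusted p = 0.0161). Ephx1, the microsomal epoxide hydrolase, had 12.3 ± 2.09 and 7.78 ± 0.712 CPM and a log2 fold change of -0.66 ± 0.12 (SE), with an adjusted p of 0.00805. Ugdh, which makes the UDP-glucuronate used in glucuronidation and in matrix glycans, had -0.81 ± 0.18 (SE), with an adjusted p of 0.0226. Glrx, a glutaredoxin, fell as well, at -0.68 ± 0.16 (SE) with an adjusted p of 0.0301. For these 3 genes and Glrx every LLC sample was below every Control sample, as for 9.57% of all tested genes. Gpx8, a peroxidase of the endoplasmic reticulum, also fell, at -0.76 ± 0.20 (SE) with an adjusted p of 0.0471 and with LLC 4 above the lowest Control. Sod3 and Gpx8 are near 1 CPM in LLC, so few counts stand behind them. Exons of Ephx1 and of Ugdh each overlap 1 gene on the same strand. With 1 sample left out, the call was lost for Ephx1 without Control 2 (log2 fold change -0.57), for Sod3 without Control 1 or Control 3 (adjusted p up to 0.0614) and for Ugdh without Control 3, LLC 5 or LLC 6 (adjusted p up to 0.0854). It was kept in only 3 of 10 such fits for Glrx, those without LLC 2, LLC 3 or LLC 4, and in 2 for Gpx8, those without LLC 1 or LLC 4, with adjusted p up to 0.102 and 0.159. The summed fibroblast markers, given above, fell in the same samples, and their part in these values was not tested.

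By group, the 8 regulators and partners of NRF2 had a median log2 fold change of 0.52 with none past the threshold. The 7 genes that supply NADPH, the reductant of both the glutathione and thioredoxin cycles, had a median of 0.51 and none passed. Conjugation and export genes, 14 in number, had a median of 0.15, with Ephx1 and Ugdh lower. The 13 other peroxidases and superoxide dismutases had a median of -0.12, with 2 lower, and the 9 tested genes of glutathione recycling, uptake and breakdown had one of -0.11, with 1 higher and 1 lower. The 5 other thioredoxin system genes, at 0.19, and the 7 genes of heme and iron handling, at 0.16, had none past the threshold. Nor did any of the 6 genes of superoxide-producing oxidases, largely enzymes of phagocytes, whose median was 0.69. All medians are set against 0.00 over all tested genes.

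**Figure D4:**
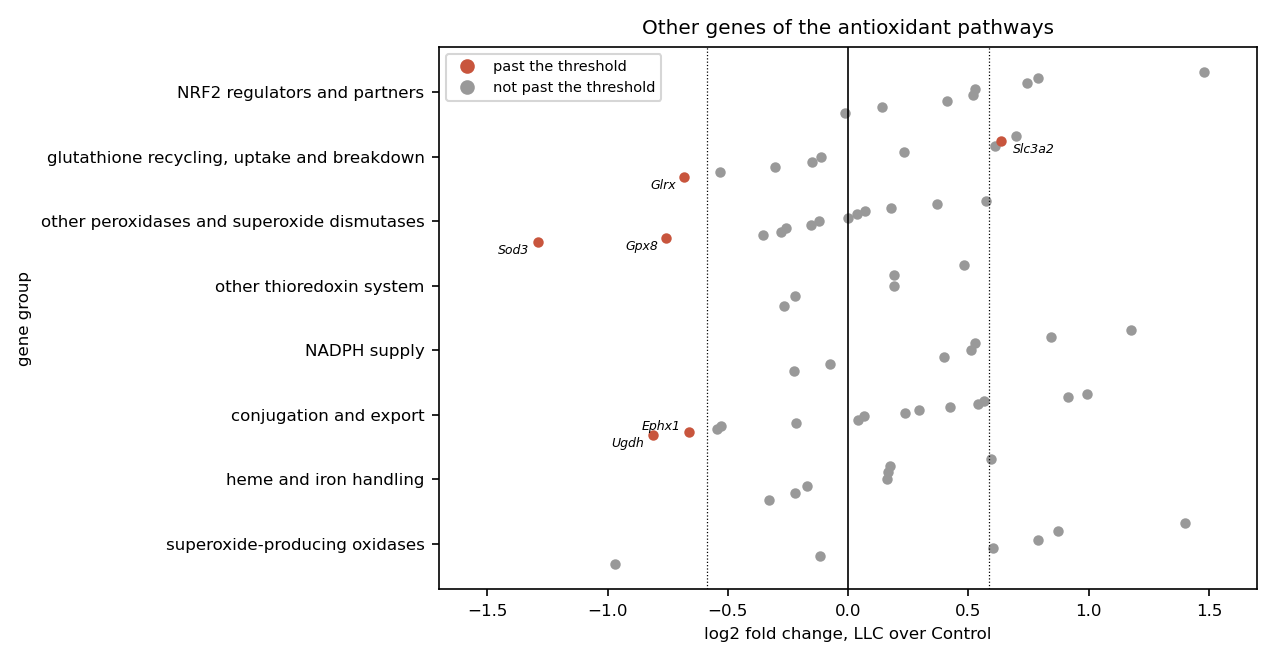
Each point is the edgeR log2 fold change, LLC over Control, of 1 of 69 other pathway genes, in rows by gene group, with dotted lines at 1.5-fold. The 6 genes past the threshold are named, Slc3a2 at 0.63 and 5 genes on the left from -0.66 to -1.29.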

How the data were processed

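Per the study's methods, the authors mapped paired reads to mm10 with TopHat2 and counted them for RefSeq genes with HTSeq with its defaults. The deposited files hold raw counts for each Ensembl gene, with 1 library per animal, and the annotation release is not given in the sources used here. HTSeq counts by strand unless told otherwise, but whether that default held for these identifiers is not known, and counts of overlapping genes are uncertain. Symbols came from Ensembl identifiers (37607 of 39179 matched), and coordinates and exon lengths from GENCODE M21 (GRCm38, the same build as mm10, 37693 matched). Per-sample totals were 16693209 to 21303084. Floors and intervals cover counting error only.

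Genes were kept by filterByExpr (count minimum 10), scaled by TMM and tested in edgeR 4.0.16 (R 4.3.3, quasi-likelihood) for the effect of group, with no other covariate and Benjamini-Hochberg adjustment over 12690 genes, with a threshold of 0.05 and 1.5-fold. SEs come from the F statistic, and 2 was the prior count of log2 CPM. Ratios used log2 of counts plus 0.5 and an exact permutation test over 210 splits. DESeq2 1.42.0, limma 3.58.1, other scalings and filters, a replicate block and left-out samples were alternatives. The scripts were tested on simulated counts. All 10 members are described, with the listed pathway genes that passed and the partner of each ratio. Members and lists were chosen with earlier results of these data known. A further erythroid marker is not reported here.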

Additional observations from a re-analysis of the deposited data

Results flagged for a closer look

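Each member was checked in both groups, 20 sets of values in all, for a sample that stood apart, measured as the distance of the lowest or highest sample from the next one over the whole range of the group. This found 1 set, which is what chance alone gives at 1 in 20. For Nqo1, Control 2, with 16.9 CPM against 14.3 to 14.7 CPM in the other 3, had a gap ratio of 0.845 on the log2 scale.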

How the results depend on the processing

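The sign of each member's log2 fold change was the same in all 190 values under 19 alternatives per member, and Gpx3 passed in every one. The sizes were less stable. With limma voom and sample quality weights, the log2 fold change was 0.68 for Hmox1, 0.50 for Srxn1, 0.46 for Gclm, 0.36 for Gclc, 0.33 for Nfe2l2, 0.25 for Cat, 0.14 for Txnrd1 and -0.22 for Sod2, each over 1.5 times smaller than in the main comparison. Under the replicate block it was 1.06 for Hmox1, 0.51 for Srxn1, 0.72 for Gclm, 0.46 for Nfe2l2, 0.28 for Cat and 0.18 for Txnrd1. LLC 5 and LLC 6 share their numbers with no Control, so in the block fit they add nothing to the group difference. That difference rests on LLC 1 to LLC 4 against Control 1 to Control 4. The members passing as higher were 1 in the main comparison, 4 in DESeq2, 5 with an unadjusted p, and 1 to 2 with a sample left out (2 without LLC 2 or LLC 3), and none passed as lower in any alternative. Pathway genes passing as higher were 1 in the main comparison, 2 with upper-quartile scaling (5 lower), 3 without a filter, 7 in DESeq2, 4 with limma voom, 2 with no minimum fold, 11 with an unadjusted p, and 0 to 4 with a sample left out (0 without any Control or LLC 5, 2 without LLC 3 or LLC 6, 4 without LLC 1, LLC 2 or LLC 4). Those passing as lower, 5 in the main comparison, were 1 to 5 with a sample left out, lowest without Control 3, with 3 without Control 4 and 2 without Control 1, Control 2, LLC 5 or LLC 6. With a sample left out, the difference in log2 ratio was 1.45 to 1.65 for Gpx3 to Gpx1, 1.10 to 1.75 for Hmox1 to Hmox2 and -1.11 to -0.64 for Sod2 to Sod1, with adjusted p of 0.0370 to 0.111 in the exact permutation tests, whose smallest unadjusted p is then 0.0159 or 0.0238, since fewer splits remain. Replicate numbers name different animals, and deviations of same-numbered samples correlated at -0.08 to 0.13, so they share a number alone. With the replicate block, Gpx3 still passed (log2 fold change 1.26), pathway calls were 0 higher and 0 lower, and calls over all genes went from 209 higher and 506 lower to 42 and 70. They were 388 and 664 in DESeq2, 275 and 722 in limma voom, 116 and 359 with at least 10 counts in every sample, and 110 to 288 higher and 284 to 678 lower with a sample left out, lowest without Control 2 and Control 3 and highest without LLC 1. The block fit thus differs from the main comparison also in the LLC samples that count. Beyond this, the cause of these differences was not tested.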
